A study of Coprinopsis cinerea with 29 samples.

Results

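In Coprinopsis cinerea, a mushroom that fruits readily on agar, 106 gene models were selected on their high levels in both parts of the mature fruiting body, out of 12003 gene models in the deposited expression table (0.883%). The choice was made on log2(RPKM + 1), where RPKM is the number of reads relative to the length of the gene model and the size of the library, and on the median of each group. A gene model was kept where the lower of its medians in mature cap with lamellae and in mature stipe lay at least 2 above its highest median in the other 7 groups, and where those mature medians differed by less than 2. They are called maturity genes below. A further 27 gene models met the gap and were set aside because cap with lamellae and stipe differed by 2 or more. For comparison, 357 gene models lay at least 2 above all other groups in mature cap with lamellae alone and 92 in mature stipe alone.

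The samples were all of strain #326 (A43mut B43mut pab 1-1), whose mating-type factors are both mutated and which forms fruiting bodies without a mate, so every group shares that background. Growth took 5 days in darkness at 37 °C, and fruiting followed at 25 °C with 12 h light and 12 h dark per day. The mature fruiting body was divided into cap with lamellae (FB_CL, n = 3 libraries) and stipe (FB_S, n = 3). The groups set against it were vegetative mycelium (VM, n = 3), secondary hyphal knots (H, n = 3), stage 1 primordia (P1, n = 4), stage 2 primordia (P2, n = 4), and the cap (YFB_C, n = 3), lamellae (YFB_L, n = 3) and stipe (YFB_S, n = 3) of young fruiting bodies. Mature cap was not separated from its lamellae, so the word cap covers both in the mature groups. Which cultures gave the replicates is not in the labels, so p-values speak of the spread between these libraries and no more.

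In a mushroom the tissues are laid down in a primordium of compact hyphae. The fruiting body then matures as the stipe lengthens, mainly by stretching cells already present. Meanwhile the cap opens and its lamellae, the gills, produce and shed spores. In Coprinopsis species the cap breaks itself down soon after the spores are shed. Stipe and cap thus do different things over the same hours, and the genes described here are those whose transcripts stood high in both.

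The identifiers are gene model numbers that the files pair with no name, product, sequence or position, so no role is given for any of them, and the labelled tissues could not be checked against marker genes. The few named by number were taken by a fixed rule. Libraries held 10736371 to 32199674 reads, with a median of 20227323. One library of young cap, replicate 3, and one of young lamellae, replicate 1, stood apart from the others of their group. Their highest correlation with a library of their group, across genes, was 0.929 and 0.875, against 0.992 between the other 2 cap libraries and 0.993 between the other 2 lamellae libraries. Both held higher levels of the maturity genes than the rest of their group, and the main results they touch are given with and without them.

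In the mature fruiting body the maturity genes took a large part of the transcripts. They accounted for 11.3% ± 0.480 of all reads in mature cap and 15.7% ± 0.928 in mature stipe (SD, n = 3 each). The shares in the other groups were 1.17% ± 0.200 in mycelium, 1.45% ± 0.249 in hyphal knots, 1.30% ± 0.104 in stage 1 primordia, 1.35% ± 0.255 in stage 2 primordia, 2.36% ± 0.827 in young cap, 1.42% ± 0.373 in young lamellae and 1.79% ± 0.374 in young stipe (SD, n = 3, or 4 for primordia). The mature libraries ran from 10.9% to 16.4%, above the highest of the others, young cap replicate 3 at 3.32%. The other young cap libraries both stood at 1.89%. In young lamellae replicate 1 stood at 1.85% and the others at 1.24% and 1.17%. In whole tissue, fewer cells of a kind and less RNA per cell cannot be told apart. A share this high is a consequence of the selection and is given as a description.

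**Figure D1:**
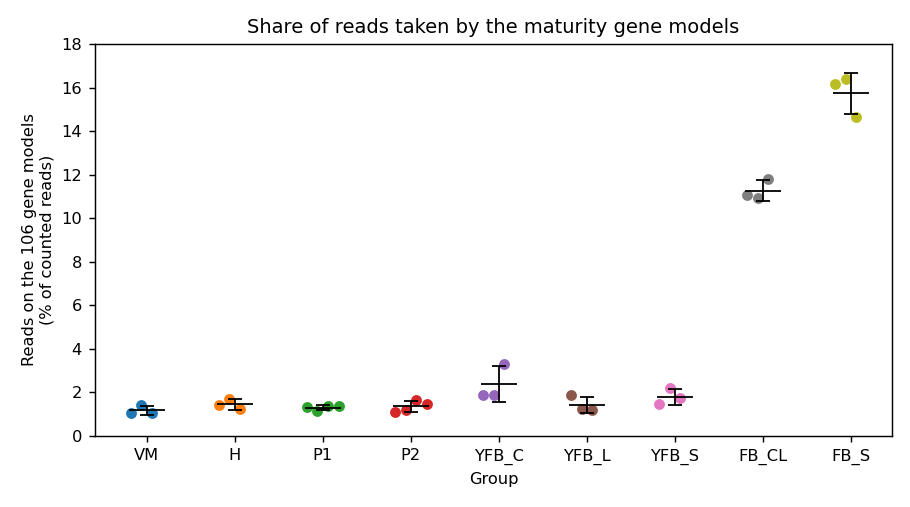
Share of all counted reads (y axis, percent) that fell on the 106 maturity genes in each library (points), by group along the x axis, with the group mean and SD as a black bar. The mature libraries lie between 10.9% and 16.4% and all others at or below 3.32%.

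The median maturity gene stood at 489.6 RPKM in mature cap and 599 RPKM in mature stipe, where the median of all 12003 gene models was 13.9 and 12.5 RPKM. In the other groups the median maturity gene ran from 23.03 RPKM in young lamellae to 46.9 RPKM in young cap, beside 13.8 to 16.3 RPKM for all gene models. Most maturity genes gave reads before maturity too. Of the 106, 103 had at least 1 read in every one of the 29 libraries, 0 had a median under 1 RPKM in all 7 other groups, and 15 had one in at least 1 of them. Among the 100 gene models with the highest RPKM, 11 were maturity genes in mature cap and 20 in mature stipe. The count was 2 in young cap, 1 each in stage 1 primordia, stage 2 primordia and young stipe, and 0 in mycelium, hyphal knots and young lamellae.

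**Figure D2:**
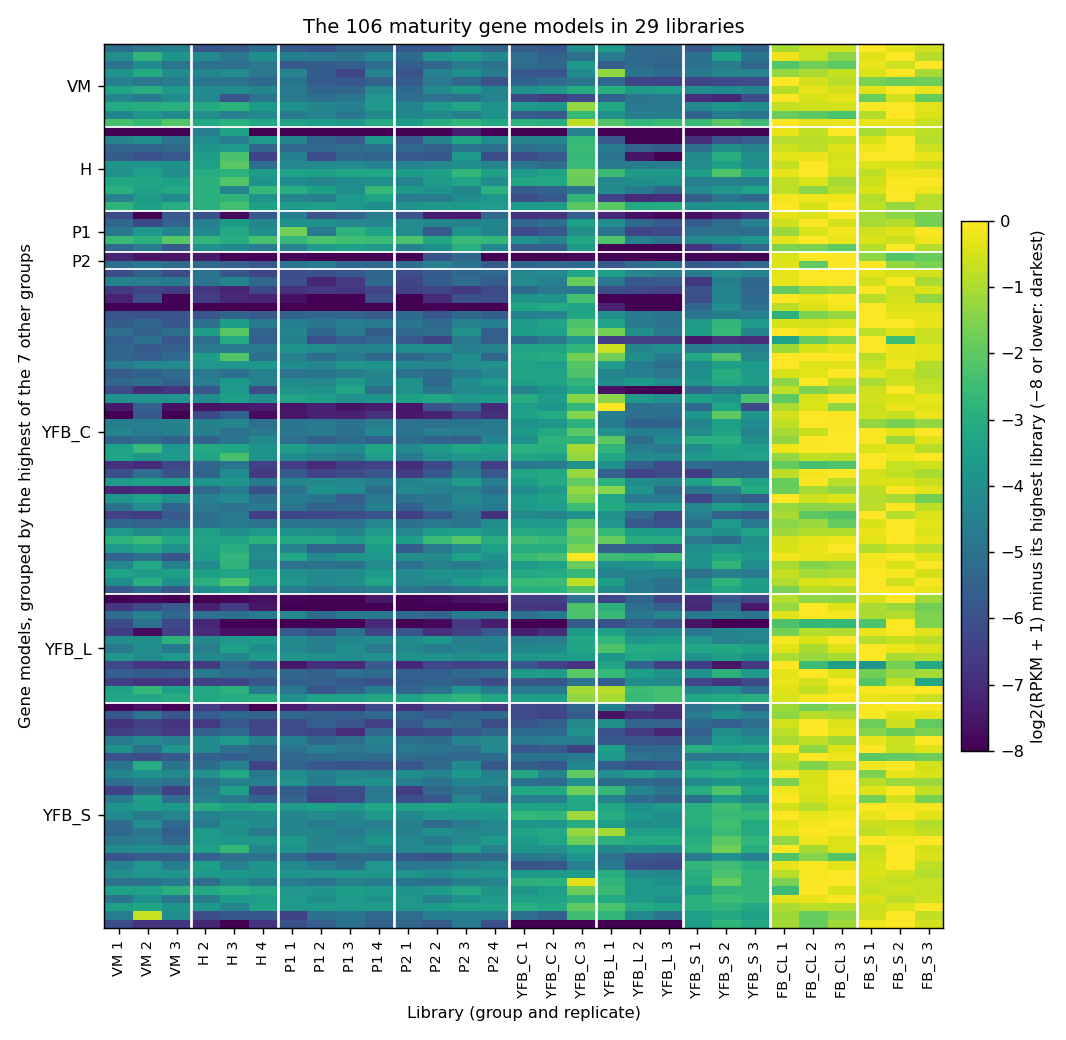
Level of each maturity gene (rows, 106) in each of the 29 libraries (columns, by group), as log2(RPKM + 1) minus the highest library of that gene, with rows grouped by which of the 7 other groups had the highest median. The 6 mature libraries form the bright block at the right, the rows under YFB_C are the most numerous at 39, and young cap replicate 3 and young lamellae replicate 1 are brighter than the other libraries of their groups.

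The gap between the lower mature median and the highest other median, the value the selection used, ran from 2.00 to 5.13 on the log2(RPKM + 1) scale, with a median of 2.53 or 5.78-fold. It lay under 2.5 in 50 genes, between 2.5 and 3 in 33, between 3 and 4 in 20 and above 4 in 3. The gene models nearest the threshold show how gradual it was. Gene models 468069 and 231823 were inside at 2.00 and 2.03, and 460130 and 487593 were outside at 1.99 each. On the other condition, 433076 at a difference of 2.08 between mature cap and stipe, higher in cap, and 444520 at -2.11, higher in stipe, were left out. All 6 mature libraries lay above all 23 others in 94 of the 106 genes, where 4.41% of all gene models did so. That count follows from the selection and nothing is read from it. In the 12 exceptions the highest of the other libraries was young cap replicate 3 in 6, young lamellae replicate 1 in 4, hyphal knot replicate 3 in 1 and mycelium replicate 2 in 1. In some of these genes a further library also reached into the mature range.

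**Figure D3:**
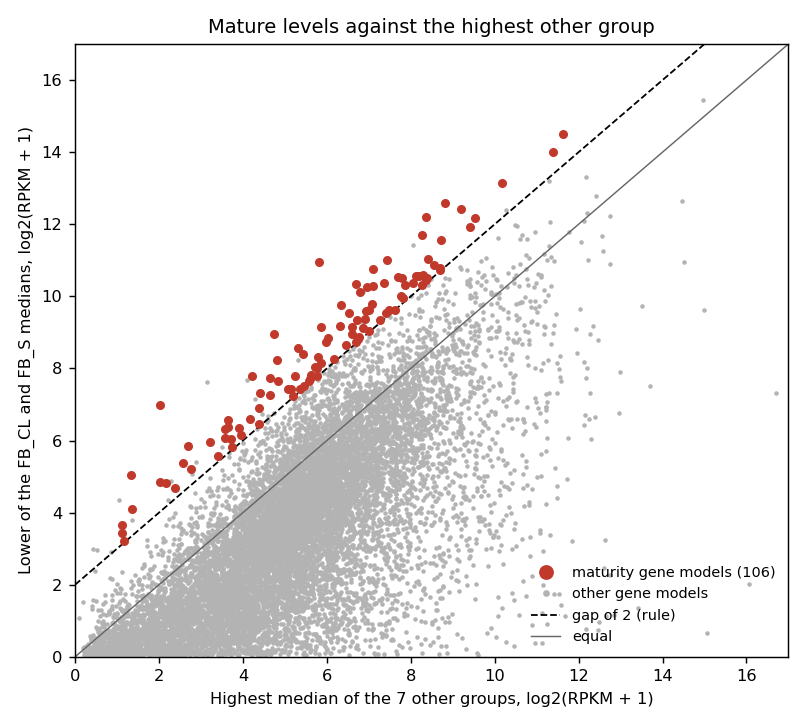
For each of 12003 gene models, the highest median among the 7 groups that are not mature (x axis) against the lower of the mature cap and mature stipe medians (y axis), both as log2(RPKM + 1). Maturity genes are red and lie at or above the dashed line 2 above the diagonal, and the grey points above that line are the 27 gene models whose mature cap and stipe differed by 2 or more.

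The size of the gap rests on how libraries are scaled. The authors' table follows TMM, a scaling that corrects for a few abundant genes taking many of the reads, and its mean factor was 0.459 ± 0.0387 in mature cap and 0.626 ± 0.0229 in mature stipe, against 0.753 ± 0.168 in young cap, 1.18 ± 0.271 in young lamellae and 0.990 ± 0.101 in young stipe (SD, n = 3 each). With library size alone the median gap of the maturity genes was 1.52 in place of 2.53, and that of all gene models fell likewise, to -2.42 in place of -1.44. Relative to all gene models the maturity genes stood 3.94 higher with library size alone and 3.97 higher with the authors' scaling. All 106 kept a gap above 0 under both. The threshold of 2 was met by only 19 gene models with library size alone, 18 of them among the 106.

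The nearest stage to set beside each mature tissue is its young counterpart. From medians of log2(RPKM + 1), mature stipe exceeded young stipe by a median of 3.63 over the maturity genes, with all 106 above 2. Mature cap with lamellae exceeded young cap by 3.38 and young lamellae by 4.10. The median of all gene models was 0.01, 0.00 and 0.01 in these differences. With library size alone the maturity genes' medians were 3.02, 2.44 and 2.58, and those of all gene models -0.46, -0.55 and -1.12. Without young cap replicate 3 and young lamellae replicate 1, mature cap exceeded young cap by 3.47 and young lamellae by 4.27. These differences were used by the selection and are given without a test.

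Gene model 495551 had the highest level of the 106 in its lower mature tissue. It stood at 17559.8, 23360.0 and 27416 RPKM in mature cap and at 31119, 22562 and 23065 RPKM in mature stipe. In young fruiting bodies its levels were 3174, 3587 and 3025 RPKM in cap, 200.4, 95.4 and 55.0 RPKM in lamellae and 761, 1846 and 919.6 RPKM in stipe. Mature cap and mature stipe overlapped for this gene, and both lay above every young library. Earlier it was low, at 2.13, 1.04 and 2.15 RPKM in mycelium, 18.9, 82.1 and 20.7 RPKM in hyphal knots, 75.5, 79.4, 102 and 36.8 RPKM in stage 1 primordia and 94.0, 67.8, 55.0 and 103 RPKM in stage 2 primordia. Alone it took 1.72% ± 0.260 of the reads in mature cap and 2.67% ± 0.467 in mature stipe (SD, n = 3 each). Of the 3 young tissues, cap came closest to the mature level and lamellae overlapped the primordia.

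Gene model 486033 was the other of the pair with the highest levels. It averaged 17511 ± 4926 RPKM in mature cap and 29548 ± 8372 RPKM in mature stipe (SD, n = 3 each). It was already abundant in mycelium, at 541, 315 and 367 RPKM. Stage 1 primordia had 2589, 2661, 4002 and 1191 RPKM and stage 2 primordia 2489.6, 1281, 2083 and 2280.2 RPKM. Young cap had 1775, 2702 and 4515 RPKM, while young lamellae had 199, 103 and 117 RPKM, the lowest levels of this gene in any group. The genes 495551 and 486033 reached like levels at maturity from very different ones in mycelium, hyphal knots and primordia. In each of the young tissues the ranges of these genes overlapped.

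The widest gaps, those of 381900 and 547072, did not go with one mature level. The lower mature median of 381900 was 1973 RPKM, above the upper quartile of the maturity genes, 1290 RPKM. That of 547072 was 127 RPKM, under their lower quartile of 153 RPKM. Gene model 381900 had 5291, 7312 and 7116 RPKM in mature cap and 2877, 1649.6 and 1973 RPKM in mature stipe. Young cap had 12.9, 14.3 and 31.9 RPKM, young lamellae 5.34, 3.49 and 4.03 RPKM and young stipe 15.2, 19.5 and 23.3 RPKM. Its highest earlier library was stage 2 primordium replicate 3 at 175 RPKM, and the other stage 2 primordia had 12.0, 120.3 and 25.2 RPKM. Its gap was 5.13 on the log2(RPKM + 1) scale. Gene model 547072, with a gap of 4.97, had 173, 127 and 126 RPKM in mature cap and 229, 323 and 146 RPKM in mature stipe. It lay between 0.139 and 0.898 RPKM in every mycelium, hyphal knot and primordium library and between 1.60 and 9.09 RPKM in the 9 young fruiting body libraries, so all mature libraries lay far above all others.

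**Figure D4:**
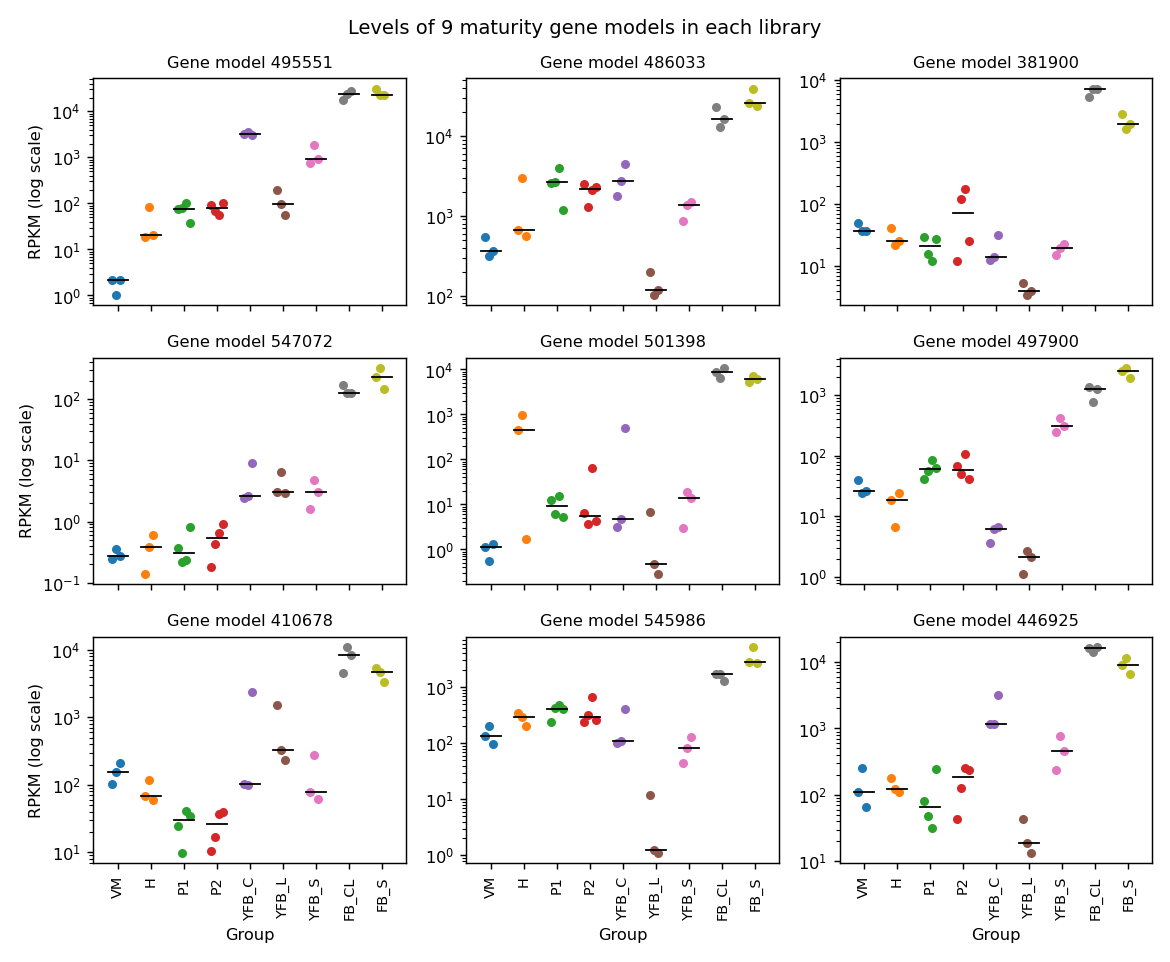
RPKM (y axis, log scale) in each library (points) by group (x axis) for 9 maturity genes named in the text, with the group median as a line. The mature libraries lie at the top in every panel, while the order of the other groups differs from gene to gene.

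The selection kept only genes whose mature cap and stipe differed by less than 2 on the log2(RPKM + 1) scale, so the nearness of the tissues is partly set by it. The median of the difference of medians, mature cap minus mature stipe, was -0.04 over the maturity genes and -0.06 over all gene models. It was within 1 in 84 of the 106 (79.2%) and within 0.5 in 44 (41.5%). Of the 10396 gene models of the table that also differed by less than 2, 72.9% were within 1 and 44.1% within 0.5. The cap median was higher in 51 genes and the stipe median in 55. All 3 libraries of cap lay above all 3 of stipe in 25 genes, the reverse held in 33, and the tissues overlapped in 48. The share over all gene models was not taken, so nothing is read from these counts. With library size alone the median difference was -0.56 for the maturity genes and -0.35 for all gene models, and 31 genes were higher in cap.

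At the cap end stood 381900, described above, and 544878. Gene model 544878 had 2618, 2228 and 3244 RPKM in mature cap and 739, 1968 and 354 RPKM in mature stipe, where 1 library of stipe came close to the cap range. At the stipe end, 440694 had 85.7, 114 and 94.1 RPKM in mature cap and 324, 248 and 380.1 RPKM in mature stipe. Gene model 372959 had 277, 461 and 281 RPKM in mature cap and 839, 1264 and 939 RPKM in mature stipe. In these stipe-leaning genes the tissues did not overlap, and 440694 was at 28.3 RPKM or lower in every library that was not mature.

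Replicate libraries of the mature tissues lay close for most maturity genes. The range over 3 libraries had a median of 0.52 in mature cap and 0.53 in mature stipe on the log2(RPKM + 1) scale, against 0.48 and 0.42 for all gene models. It was under 1 for 87 genes in cap and 93 in stipe. The least even were 465336 and 469800. Gene model 465336 had 1489, 258 and 138 RPKM in mature cap and 105, 463 and 171 RPKM in mature stipe, with 148 RPKM in young lamellae replicate 1, which overlapped them. Gene model 469800 had 15.1, 91.7 and 64.9 RPKM in mature cap and 55.8, 60.6 and 55.6 RPKM in mature stipe, with 25.2 RPKM in young cap replicate 3.

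The group that came closest to the mature level was most often a tissue of the young fruiting body. It was young cap in 39 genes, young stipe in 27, young lamellae in 13, mycelium in 10, hyphal knots in 10, stage 1 primordia in 5 and stage 2 primordia in 2. Young tissues were thus highest of the 7 in 74.5% of maturity genes and in 60.3% of all gene models, and young cap alone in 36.8% and 19.3%. The lead of young cap rests on the scaling, since with library size alone it was highest in 13 genes (12.3%, against 9.25% of all). Young stipe was then highest in 25 (23.6%, against 15.1%) and young lamellae in 23 (21.7%, against 24.4%). Hyphal knots were highest in 20 (18.9%, against 9.21%) and mycelium in 15 (14.2%, against 29.6%). The lowest of the 7 was mycelium in 33 genes (31.1%, against 22.0% of all) and young lamellae in 31 (29.2%, against 19.7%). With library size alone it was young cap in 26 (24.5%, against 40.9%), mycelium in 24 (22.6%, against 13.8%) and young lamellae in 22 (20.8%, against 13.6%). The 7 medians spanned a median of 2.04 on the log2(RPKM + 1) scale, against 1.78 for all gene models, and the span was under 1 in 11 genes. Without young cap replicate 3 and young lamellae replicate 1 the highest group was young cap in 37 genes (34.9%, against 18.6% of all). It was young stipe in 28 (26.4%, against 21.3%) and young lamellae in 12 (11.3%, against 20.7%). The lowest was then mycelium in 32 (30.2%, against 21.8%) and young lamellae in 32 (30.2%, against 20.5%). The span then had a median of 2.02 and was under 1 in 17 genes.

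Levels in the young tissues varied more between libraries than those at maturity. The range over 3 libraries had a median of 1.44 in young cap, 1.06 in young lamellae and 0.75 in young stipe, against 0.68, 0.73 and 0.52 for all gene models. Replicate 3 was the highest young cap library in 102 of the 106 genes. It stood a median of 1.41 above the mean of the other libraries of its group, where the median of all gene models was -0.01. On the same measure, replicate 1 was the highest young lamellae library in 88 genes, by 0.97, and replicate 2 the highest young stipe library in 76, by 0.50. The share over all gene models was not taken for these counts. With library size alone the counts were 87, 72 and 57. Gene model 410678 is an example, with 104, 100.5 and 2339 RPKM in young cap and 1507, 330.1 and 232 RPKM in young lamellae, beside 4622, 10947 and 8495 RPKM in mature cap and 5414, 4744 and 3293 RPKM in mature stipe. The source of these higher levels was not tested.

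What the selection did not use is the order of the 7 earlier groups, beyond a ceiling on the highest of them. It was tested in 8 comparisons without a mature group, with edgeR's quasi-likelihood test on read counts. A gene was called where its change was 2-fold or more and its p, adjusted by Benjamini-Hochberg, was under 0.05, and all 106 maturity genes were among the 11990 gene models tested. Each count is read against the share of all gene models called. The comparisons with stage 2 primordia share those libraries, and those with hyphal knots share theirs. The 3 between young tissues share libraries with each other and with the comparisons of young tissues against stage 2 primordia. The counts are thus not independent of one another.

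At the onset of fruiting, maturity genes were called higher about as often as all gene models (12.3% and 11.0%). They were called lower less often (0.943% and 8.98%). In hyphal knots 13 were higher and 1 was lower than in mycelium, 14 in all or 13.2%, where 19.9% of all gene models were called (11.0% higher, 8.98% lower). The median log2 change was 0.33 over the maturity genes and -0.02 over all. Gene model 495551 rose by 4.53 ± 0.67 log2 units (SE; edgeR adjusted p = 2.9e-05), and no hyphal knot library overlapped mycelium. Gene model 501398 had 449.7, 996 and 1.72 RPKM in hyphal knots and 1.13, 0.551 and 1.29 RPKM in mycelium, so its log2 change, 8.95 ± 2.1 (SE; edgeR adjusted p = 0.00312), came from 2 of 3 libraries. Its mature levels were 8935, 6313 and 10785 RPKM in cap and 5213, 7149.6 and 6186 RPKM in stipe. The 1 gene that fell was 442493, with 4.81, 6.28 and 6.09 RPKM in hyphal knots and 15.5, 246 and 22.7 RPKM in mycelium (log2 change -4.05 ± 0.88 SE; edgeR adjusted p = 0.00163). Without mycelium replicate 2 its change was -1.74 and no longer called (edgeR adjusted p = 0.0706). Without hyphal knot replicate 3 the counts were 5 higher and 2 lower, without mycelium replicate 1 or 3 the total was 9 each, and without the young cap and young lamellae libraries that stood apart 20 were higher and 2 lower. Without hyphal knot replicate 3 the log2 changes of 495551 and 501398 were 3.47 and 7.80.

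From hyphal knots to stage 2 primordia 1 maturity gene was called higher and 0 lower, where 5.06% of all gene models were called (1.38% higher, 3.69% lower). At an unadjusted p under 0.05 there were 2421 of the 11990 gene models. Gene model 497900 had 66.7, 50.6, 107 and 41.4 RPKM in stage 2 primordia and 18.6, 6.71 and 24.4 RPKM in hyphal knots, with no overlap (log2 change 2.01 ± 0.41 SE; edgeR adjusted p = 0.00534). In a fit to these 7 libraries alone it was not called (edgeR adjusted p = 0.091). The count was unstable at this step. It was 2 higher and 11 lower (1.89% and 10.4%) without the 2 young libraries that stood apart, which share the estimate of the spread. Calls over all gene models rose too, to 2.45% higher and 6.21% lower. The count was 10 in all without hyphal knot replicate 4, where 1.71% of all were higher and 6.27% lower. It was 3 without stage 2 primordium replicate 3 (1.29% and 4.08% of all), and 5 with DESeq2 (1.98% and 4.73% of all).

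Young cap, lamellae and stipe were each set against stage 2 primordia. In young cap 53 maturity genes were higher and 7 lower than in these primordia, where 42.7% of all gene models were called (22.0% higher, 20.7% lower). The median log2 change was 1.20 over the maturity genes and 0.00 over all. Primordia were not divided by tissue, so stage and tissue cannot be told apart here. Gene model 495551 rose by 5.35 ± 0.61 log2 units (SE; edgeR adjusted p = 2.08e-07), with all 3 young cap libraries at 3025 RPKM or more. Gene model 410678 rose by 5.04 ± 0.93 (SE; edgeR adjusted p = 8.66e-05), and by 1.99 without young cap replicate 3. Gene model 497900 went the other way, with 3.67, 6.08 and 6.73 RPKM in young cap (log2 change -3.62 ± 0.45 SE; edgeR adjusted p = 6.94e-07). So did 469208, with 22.0, 25.1 and 39.0 RPKM in young cap and 90.6, 75.2, 55.3 and 154 RPKM in stage 2 primordia (log2 change -1.71 ± 0.41 SE; edgeR adjusted p = 0.00123).

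The size of this excess of higher genes depended on 1 library and its counts on the scaling. Without young cap replicate 3 the counts were 29 higher and 12 lower, with a median change of 0.47 over the maturity genes, while 17.2% of all gene models were higher and 17.7% lower. Scaled by library size alone, 17 were higher and 15 lower (16.0% and 14.2%), where 8.50% of all gene models were higher and 43.6% lower. The median change was then 0.19 where all gene models shifted by -0.89. Relative to all gene models the maturity genes were thus higher by 1.20 under TMM and by 1.08 with library size alone. The number called higher in young cap exceeded the 30 of young lamellae and the 34 of young stipe given next. This order did not hold without the young cap and young lamellae libraries that stood apart, with 31 in young cap and 38 in young stipe, or with library size alone, with 17 in young cap and 20 in young lamellae. Over all gene models 18.1% and 18.6% were higher in the first case, and 8.50% and 13.4% in the second.

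In young lamellae 30 maturity genes were higher and 12 lower against stage 2 primordia, where 34.5% of all gene models were called (18.5% higher, 16.0% lower). The median change was 0.39 over the maturity genes and 0.11 over all. Without young lamellae replicate 1, 14 were higher and 20 lower (13.2% and 18.9%), near the 15.9% and 18.5% of all gene models, with a median of -0.09. Under library size alone 20 were higher and 19 lower (18.9% and 17.9%), where 13.4% of all gene models were higher and 20.1% lower. Gene model 489122 had 432, 11.9 and 12.8 RPKM in young lamellae and 1.37, 6.06, 10.0 and 2.34 RPKM in stage 2 primordia (log2 change 4.94 ± 0.98 SE; edgeR adjusted p = 0.000241). Without replicate 1 its change was 1.32 and not called (edgeR adjusted p = 0.12). Gene model 410678 rose by 4.74 ± 0.92 (SE; edgeR adjusted p = 0.000176) and by 3.45 without that library. The falls were steep. Gene model 545986 had 11.9, 1.24 and 1.09 RPKM in young lamellae and 239, 315, 668 and 262 RPKM in stage 2 primordia (log2 change -6.30 ± 0.82 SE; edgeR adjusted p = 1.4e-06), or -8.34 without replicate 1, and its mature levels were 1752, 1713 and 1273 RPKM in cap with lamellae and 2763, 5171 and 2711 RPKM in stipe. Gene model 497900 had 1.12, 2.71 and 2.12 RPKM in young lamellae (log2 change -5.10 ± 0.49 SE; edgeR adjusted p = 1.93e-08).

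In young stipe 34 maturity genes were higher and 9 lower against stage 2 primordia, where 38.9% of all gene models were called (17.8% higher, 21.1% lower). The median change was 0.66 over the maturity genes and 0.00 over all. Under library size alone 16 were higher and 19 lower (15.1% and 17.9%), where 9.64% of all gene models were higher and 32.1% lower, and the median change was 0.15 where all shifted by -0.50. Without young stipe replicate 2 the counts were 20 higher and 8 lower (18.9% and 7.55%), where 14.9% of all were higher and 16.0% lower. Gene model 497677 had 414, 1464 and 419 RPKM in young stipe and 32.0, 38.6, 67.6 and 48.5 RPKM in stage 2 primordia, without overlap (log2 change 4.04 ± 0.62 SE; edgeR adjusted p = 1.26e-05), and changed by 3.16 without replicate 2. Gene model 495551 rose by 3.88 ± 0.57 (SE; edgeR adjusted p = 8.18e-06). Gene model 545986 fell to 44.2, 81.3 and 129 RPKM in young stipe (log2 change -2.13 ± 0.66 SE; edgeR adjusted p = 0.00955), a call lost without replicate 1 (edgeR adjusted p = 0.0538). Gene model 437139 had 33.7, 26.4 and 59.3 RPKM in young stipe and 83.1, 161, 227 and 121 RPKM in stage 2 primordia (log2 change -1.89 ± 0.35 SE; edgeR adjusted p = 9.89e-05), before reaching 696 to 987 RPKM in the mature tissues.

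**Figure D5:**
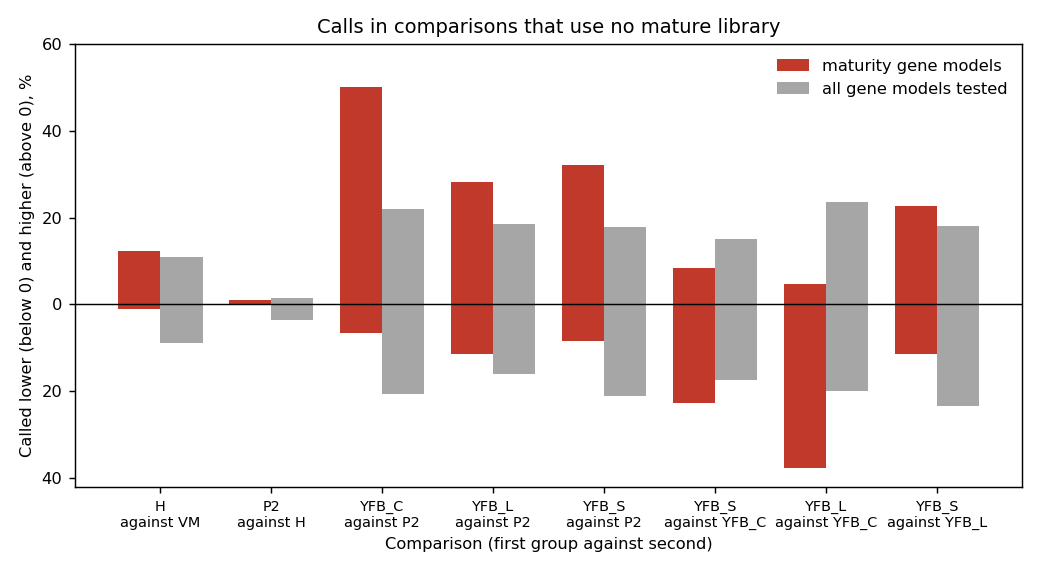
Percentage of the 106 maturity genes (red) and of all 11990 gene models tested (grey) called higher (bars above 0) and lower (bars below 0) in each of the 8 comparisons without a mature group. In young cap against stage 2 primordia 53 were higher and 7 lower, and in young lamellae against young cap 5 were higher and 40 lower.

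Among the young tissues, the maturity genes were more often called lower than higher in lamellae against cap. In young lamellae 5 were higher and 40 lower than in young cap, where 43.6% of all gene models were called (23.7% higher, 19.9% lower). The median change was -0.69 over the maturity genes and 0.08 over all. More were also lower than higher without the libraries that stood apart, at 9 higher and 31 lower without both, 3 and 49 without young lamellae replicate 1, and 15 and 21 without young cap replicate 3. In the last case 21.9% of all gene models were higher and 16.8% lower. Of all gene models 21.5% were higher and 20.5% lower without both, and 22.7% and 24.4% without young lamellae replicate 1. Under library size alone, 15 were higher and 19 lower (14.2% and 17.9%), where 38.5% of all gene models were higher and 12.1% lower, with a median of -0.02 where all shifted by 0.72. Gene model 446925 had 43.6, 18.9 and 13.3 RPKM in young lamellae and 1151, 1159.9 and 3176 RPKM in young cap (log2 change -6.18 ± 0.88 SE; edgeR adjusted p = 3.76e-06), with -5.51 without young cap replicate 3 and -6.83 without young lamellae replicate 1. At maturity it reached 16187, 14234 and 16689.7 RPKM in cap with lamellae and 9128, 11682 and 6643 RPKM in stipe. Gene model 545986 fell by 5.46 ± 0.80 on the log2 scale in young lamellae against young cap (SE; edgeR adjusted p = 5.07e-06), by 4.47 without young cap replicate 3 and by 7.51 without young lamellae replicate 1. Gene model 450635 was the 1 gene that passed the naming rule in the other direction, at 1326, 739 and 727 RPKM in young lamellae and 314, 338 and 636 RPKM in young cap (log2 change 1.12 ± 0.33 SE; edgeR adjusted p = 0.00718). Its change lost the call without young cap replicate 1 or 2 or young lamellae replicate 1, at 0.93, 0.97 and 0.77.

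In young stipe 9 maturity genes were higher and 24 lower than in young cap, where 32.6% of all gene models were called (15.1% higher, 17.5% lower). The median change was -0.58 over the maturity genes and 0.04 over all. This rested on young cap replicate 3, without which 10 were higher and 8 lower (9.43% and 7.55%, where 13.1% of all gene models were higher and 14.2% lower) and the median was 0.19, against 0.09 over all. Without young stipe replicate 1 the total was 21 in place of 33, and over all gene models it was 3376 in place of 3912. Library size alone gave 14 higher and 15 lower (13.2% and 14.2%), where 24.8% of all gene models were higher and 11.9% lower. Gene model 497900 had 245, 425 and 308 RPKM in young stipe and 3.67, 6.08 and 6.73 RPKM in young cap (log2 change 5.91 ± 0.51 SE; edgeR adjusted p = 9.95e-09). The young tissues did not overlap, and at maturity it stood at 1337, 759 and 1274 RPKM in cap and 2509.9, 2806 and 1935 RPKM in stipe. Gene model 472134 had 12.9, 10.1 and 10.9 RPKM in young stipe and 0.833, 1.04 and 0.224 RPKM in young cap (log2 change 4.07 ± 0.64 SE; edgeR adjusted p = 2.17e-05). Young stipe was lower for 409172 (log2 change -3.46 ± 0.64 SE; edgeR adjusted p = 0.000152), and -2.46 without young cap replicate 3. It was also lower for 441233 (log2 change -3.14 ± 0.49 SE; edgeR adjusted p = 2.32e-05), and -2.24 without that library.

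In young stipe 24 maturity genes were higher and 12 lower than in young lamellae, where 41.6% of all gene models were called (18.1% higher, 23.4% lower). The median change was 0.31 over the maturity genes and -0.03 over all. Without young lamellae replicate 1 the counts were 39 higher and 5 lower (36.8% and 4.72%), where 21.6% of all gene models were higher and 20.9% lower. Without young stipe replicate 2 they were 15 and 9 (14.2% and 8.49%), against 15.8% and 20.3% of all. With library size alone they were 20 and 17 (18.9% and 16.0%), against 14.1% and 27.5% of all. Gene model 497900 was higher in young stipe by 7.39 ± 0.54 log2 units (SE; edgeR adjusted p = 7.95e-10), and 446925, at 238, 777 and 453 RPKM in young stipe, by 4.28 ± 0.81 (SE; edgeR adjusted p = 0.000124) and by 4.93 without young lamellae replicate 1. Gene model 445175 had 1.27, 1.82 and 1.48 RPKM in young stipe and 37.4, 1.85 and 2.42 RPKM in young lamellae (log2 change -3.20 ± 0.71 SE; edgeR adjusted p = 0.000633), and without replicate 1 of lamellae the change was -0.50 and not called (edgeR adjusted p = 0.251). Gene model 445373 had 10.8, 12.9 and 5.97 RPKM in young stipe and 129, 40.5 and 43.2 RPKM in young lamellae (log2 change -2.84 ± 0.76 SE; edgeR adjusted p = 0.00342), and -2.08 without that library.

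Beyond their levels, the files give the length of each gene model and the share of its reads placed on that model alone. Maturity genes had a median length of 1494 bases, from 192 to 6552, where the table's median was 1315 bases, from 150 to 15316. The share of reads placed on 1 model was 93.5% for 379556, 98.4% for 410587 and 99.2% for 12377, named here after their values were seen, and higher for the other 103. Reads shared with near-identical gene models thus touched few of them.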

How the data were processed

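Polyadenylated RNA was sequenced from TruSeq v2 libraries, which carry no strand information, so overlapping genes on opposite strands share reads that cannot be assigned. Groups and replicate numbers came from the sample titles. The deposited files hold total and unique read counts of 14242 gene models per library, per the file headers, laid out as CLC RNA-Seq writes them, with each gene model as its own reference sequence. The deposited TPM column was not used, and other columns, per the file headers, hold gene model length and an empty RPKM field. A deposited table holds log2 RPKM for 12003 gene models. The submitters' processing notes name limma 3.18.13, edgeR 3.4.2 and R 3.0.2. The library scaling of that table differed from TMM factors computed here by at most 0.00241 (log2). For the aligner and the genome build, the sources used here give no name. Of 14242 identifiers, 0 matched a RefSeq table of 13657 genes made from another strain's assembly, so no name, sequence or position is given.

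The maturity genes and the comparisons were chosen with earlier results of these data known. Total counts were tested with edgeR 4.0.16 in R 4.3.3, in 1 quasi-likelihood model over all 29 libraries with a coefficient per group, TMM scaling and the filterByExpr filter, which kept 11990 gene models. Benjamini-Hochberg adjustment ran over all of them. The SE of a log2 change is its size divided by the square root of its F statistic and is approximate. Between replicate libraries of a group, chi-square divided by its degrees of freedom was 24.9 to 1007, far above sampling noise, and all libraries were kept as separate. Genes were named by rule. They were the 2 highest at maturity, the 2 with the widest and the 2 with the narrowest gap, the 2 just outside it, the 2 at each end between mature cap and stipe, the 2 with the widest replicate range, the 2 with the highest level before maturity, and in each comparison the 2 largest rises and falls among called genes with groups that did not overlap and a mean of at least 10 RPKM. The pair 433076 and 444520, just outside the limit between cap and stipe, was added to show that limit. Same-numbered libraries of hyphal knots and stage 2 primordia deviated together (correlations 0.32, 0.28 and 0.17 for replicates 2, 3 and 4, where both libraries of replicate 4 came from the second flow cell), so the replicate numbers were taken to pair them. Over the other comparisons together some same-numbered pairs did and others did not. None did in young lamellae against stage 2 primordia or in young stipe against young lamellae. The numbers were thus not taken to pair the libraries of these other comparisons. The alternatives were DESeq2 1.42.0, limma 3.58.1 on log2(RPKM + 1) and log2(RPKM + 0.1), other scalings, filters and fold thresholds, the replicate block, the flow cell, smaller sets of libraries and other settings of the selection. The tests were also run on simulated counts in which few gene models changed, evenly up and down. That run does not address how the counts depend on the scaling.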

Additional observations from a re-analysis of the deposited data

Results flagged for a closer look

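Among the named genes, 56 groups of 4 libraries were tested for a library far from the rest, and 3 were picked out, where chance alone picks out about 1 in 20 groups. All 3 lay in stage 1 primordia. Gene model 440694 stood at 10.2 RPKM in replicate 4, the library of the second flow cell, and at 6.56, 6.54 and 6.96 RPKM in replicates 1 to 3. Gene model 372959 stood at 20.3 RPKM in replicate 2 and at 31.7, 32.9 and 32.2 RPKM in the others. Gene model 437139 stood at 75.3 RPKM in replicate 3 and at 107, 108 and 106 RPKM in the others. All of these levels lie far under the mature ones, and no comparison of the report uses stage 1 primordia except through the shared estimate of the spread.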

How the results depend on the processing

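The number of maturity genes, 106, was 23 with a gap of at least 3, 223 with a gap of at least 1.5 and 19 with library size alone. It was 104 to 125 without any one mature library. With RPKM from counts and TMM, an alternative chosen after seeing the data, it was 106, all shared. The levels and group orders given without the young cap and young lamellae libraries that stood apart were also chosen after seeing the data. At a threshold of 4-fold, the counts of maturity genes called were 7 for hyphal knots against mycelium, 25, 21 and 13 for young cap, lamellae and stipe against stage 2 primordia, 14 for young stipe and 16 for young lamellae against young cap, and 19 for young stipe against young lamellae. Over all 11990 gene models, in that order, the counts were 1056, 2210, 2076, 1879, 1710, 2758 and 2432. For stage 2 primordia against hyphal knots the count of 1 was 6 on the first flow cell alone, 5 with DESeq2 and 0 in a fit to those groups alone. Over all gene models the counts were 758 of 11990, 877 of 13059 and 37 of 11990. A fit to only the groups compared gave 21 for young stipe and 22 for young lamellae against young cap, where 3020 and 3505 of 11990 were called. Library size alone gave 32 for young cap against stage 2 primordia, where 6242 of 11990 were called. Without young cap replicate 3 and young lamellae replicate 1 together, 22 were called in hyphal knots against mycelium, 13 in stage 2 primordia against hyphal knots and 48 in young stipe against stage 2 primordia. Over all 11990 gene models the counts were then 2871, 1039 and 4931. The cause of these moves was not tested.

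Leaving out 1 library of the groups compared gave 7 to 19 calls for hyphal knots against mycelium and 1 to 10 for stage 2 primordia against hyphal knots. Over all 11990 gene models the ranges were 1646 to 2545 and 264 to 957. Against stage 2 primordia the ranges were 41 to 66 for young cap, 34 to 43 for young lamellae and 28 to 46 for young stipe. Those over all gene models were 4179 to 5262, 3912 to 4126 and 3704 to 4800. The maturity genes gave 18 to 37 for young stipe and 36 to 52 for young lamellae against young cap, and 24 to 44 for young stipe against young lamellae. All gene models gave 3276 to 4029, 4647 to 5644 and 4326 to 5100. The lowest count came without hyphal knot replicate 3, with 7, and without young cap replicate 3 for young stipe against young cap, with 18. With the replicate number as a block, the counts were 15 for hyphal knots against mycelium and 1 for stage 2 primordia against hyphal knots. Of all 11990 gene models 2330 and 494 were called. In the latter comparison the numbers were taken to pair the samples, which the labels do not state, and the call was unchanged. The main fit used no pairing. Elsewhere the libraries share only a number, and the block gave 62, 39 and 44 for young cap, lamellae and stipe against stage 2 primordia, 28 and 42 for young stipe and lamellae against young cap, and 35 for young stipe against young lamellae. Over all 11990 gene models, in that order, the block gave 5002, 4010, 4503, 3848, 5118 and 4874.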
